A study of Mus musculus with 4 samples.

Results

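Mitochondrial ribosomal protein genes are the nuclear genes whose products join with mitochondrial ribosomal RNA to build the ribosome of the mitochondrion. They were chosen by symbol, as every gene named Mrpl or Mrps followed by a number and at most 1 letter, which gave 77 of the 19445 genes with a value in any library. Of these, 48 carry a large-subunit symbol (Mrpl) and 29 a small-subunit symbol (Mrps). All 77 had a value above 0 in all 4 libraries. The levels come from pachytene spermatocytes, male germ cells in the long prophase of the first meiotic division, taken from the testes of adult C57BL/6 mice. Cells of Tcfl5+/- mice, with a single intact copy of Tcfl5 (2 libraries, replicates 1 and 2), were set against cells of Tcfl5+/+ mice (2 libraries, replicates 1 and 2). The product of Tcfl5 is a germ-cell transcription factor with a basic helix-loop-helix domain, and the comparison asks how the loss of a copy alters gene expression in these cells. The labels do not say whether the libraries of a genotype came from separate animals, so the spread between them may be technical.

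The mitochondrial ribosome translates the few messenger RNAs encoded by mitochondrial DNA, all of which specify subunits of the respiratory chain and of ATP synthase. All of its proteins are made in the cytoplasm from nuclear genes and imported. Some have a counterpart in the bacterial ribosome, while others are found only in mitochondria and sit mostly on its outer surface. In the testis, mitochondria are remodelled during meiosis, and spermatocytes rely more on oxidative phosphorylation than spermatogonia do.

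Values are FPKM, which divides reads by transcript length and by the mapped reads of the library, and the depth behind them is unknown. They summed to 492203 and 483954 FPKM in the Tcfl5+/- libraries, against 473346 and 468130 FPKM in the Tcfl5+/+ libraries. Tcfl5 itself had 137.0 and 188.5 FPKM in Tcfl5+/- cells, against 248.7 and 237.7 FPKM in Tcfl5+/+ cells, a log2 difference of -0.59 (SE 0.16) that did not pass (limma adjusted p = 0.242). It was -0.37 without Tcfl5+/- replicate 1 and -0.82 without Tcfl5+/- replicate 2. Of 13333 genes tested with limma on log2(FPKM + 1), 0 passed a Benjamini-Hochberg adjusted p of 0.05, and 1759 had an unadjusted p under 0.05. The 12 markers of pachytene spermatocytes, Tcfl5 itself among them, were present in every library. They summed to 5665 and 5968 FPKM in Tcfl5+/- cells, against 6075 and 6298 FPKM in Tcfl5+/+ cells. The 12 spermatid markers, protamines and transition proteins among them, summed to 3613 and 3101 FPKM in Tcfl5+/- cells, against 2597 and 1764 FPKM in Tcfl5+/+ cells, so the isolated cells held spermatid transcripts in unequal amounts. In bulk samples, fewer cells of a type cannot be told apart from less RNA per cell.

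The regions around the start sites are shown first, because the genes lie scattered over 17 chromosomes in RefSeq, with at most 10 on any of them (chromosome 11), while many of their promoters hold the same short elements. RefSeq windows of 250 bases before and 50 after the start (GRCm38.p6) were found for 68 of the 77 genes and for 10715 of the genes tested. The letters CCGGAAG, the core bound by ETS factors, occurred on either strand in 36.8% of the windows of these genes (25 of 68) and in 19.2% of those of all genes tested. The letters GCCATNTT, the core bound by YY1, occurred in 29.4% (20 of 68), against 9.62% of all genes tested. CCAAT, the core bound by NF-Y, was found in 39.7% against 43.3%. The E-box CACGTG, a core bound by basic helix-loop-helix factors, was found in 7.35% (5 of 68) against 11.2%. The NRF1 palindrome was found in 4.41% (3 of 68) against 2.23%, and TATAAA in 7.35% against 9.24%. None of the 6 was found in the windows of 14 genes. Both strands were read for each motif, and a match is a run of letters, not a shown binding site.

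The YY1-type letters lay in many of these windows just downstream of the start, in the orientation AANATGGC. The following 24-base stretches show it in 7 genes described further on, 5 with both Tcfl5+/- libraries above both Tcfl5+/+ libraries (Mrps30, Mrpl42, Mrpl18, Mrps18a and Mrpl51) and 2 whose libraries overlapped (Mrpl49 and Mrpl47). Each is written 5′ to 3′ on the strand of its gene (RefSeq, GRCm38.p6), with the element in capitals.
Mrps30 (chr13:118387222-118387245, minus strand): ggcgggcgAAAATGGCggcggcca
Mrpl42 (chr10:95501907-95501930, minus strand): attgaagcAAGATGGCgagcgcgc
Mrpl18 (chr17:12916070-12916093, minus strand): ccacagttAACATGGCtgcgacta
Mrps18a (chr17:46111007-46111030, plus strand): tgcgttccAAGATGGCggccctca
Mrpl51 (chr6:125192210-125192233, plus strand): taaggcccAAAATGGCtcctctta
Mrpl49 (chr19:6057724-6057747, minus strand): gaggcgccAAGATGGCagcagcgg
Mrpl47 (chr3:32736727-32736750, minus strand): ccattagaAACATGGCtgcgacca
Counted from 1 at the RefSeq start, the capitals began at position 16 in Mrps30, 28 in Mrpl42, 7 in Mrpl18, 12 in Mrps18a, 19 in Mrpl51, 17 in Mrpl49 and 14 in Mrpl47.

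ETS-type letters stood mostly within 100 bases of the start on either side. They are shown in 3 genes that were higher in both Tcfl5+/- libraries (Mrpl34, Mrpl52 and Mrpl51) and in Mrpl3, which was lower in both, with the element in capitals. Mrpl52 has it as the reverse complement.
Mrpl34 (chr8:71464874-71464910, plus strand): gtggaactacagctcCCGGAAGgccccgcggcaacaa
Mrpl52 (chr14:54426847-54426883, plus strand): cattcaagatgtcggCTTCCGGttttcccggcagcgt
Mrpl51 (chr6:125192095-125192131, plus strand): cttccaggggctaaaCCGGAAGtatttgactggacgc
Mrpl3 (chr9:105053234-105053270, plus strand): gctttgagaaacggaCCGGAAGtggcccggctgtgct
These genes were picked as examples after their values were seen, and a link between the letters and the differences was not tested. Among genes with a window, the median log2 difference between genotypes was 0.17 with the ETS-type letters and 0.21 without them, 0.18 both with and without the YY1-type letters, and 0.18 both with and without the E-box. It was 0.22 with CCAAT and 0.15 without, 0.08 with TATAAA (5 genes) and 0.20 without, and 0.22 with the NRF1 palindrome (3 genes) and 0.18 without. The Mrpl40 and Mrps5 windows held none of the 6 motifs, and the 100 bases before their starts are given because these genes were among those with the widest differences.
Mrpl40 (chr16:18876638-18876737, minus strand): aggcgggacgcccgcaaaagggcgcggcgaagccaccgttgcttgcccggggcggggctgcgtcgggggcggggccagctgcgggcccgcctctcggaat
Mrps5 (chr2:127587326-127587425, plus strand): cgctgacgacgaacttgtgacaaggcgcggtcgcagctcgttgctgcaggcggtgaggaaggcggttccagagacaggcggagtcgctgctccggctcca

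**Figure D1:**
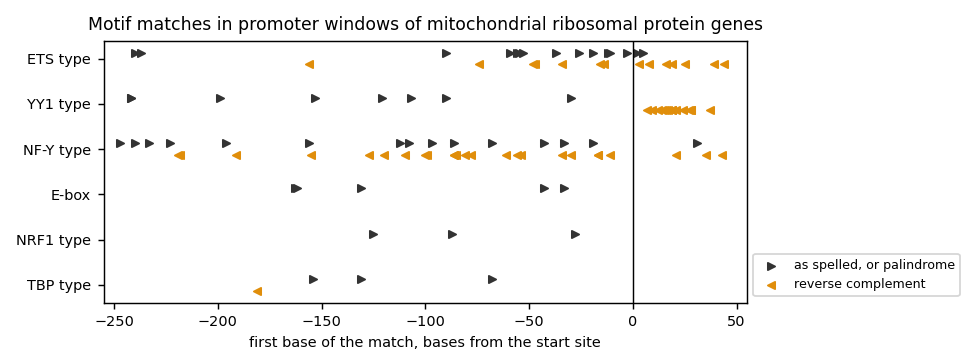
Position of each motif match in the promoter windows of the 68 genes with one, as bases from the RefSeq start (horizontal axis; black, as spelled or palindromic; orange, reverse complement). The 6 rows are motif types, NF-Y standing for the letters CCAAT and TBP for TATAAA; YY1-type matches in reverse complement all lie in the first 50 bases after the start.

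All 77 genes were expressed, over a 48.0-fold range of mean level. The median gene had a mean of 28.5 FPKM, against 8.16 FPKM for all genes tested. In 4 genes the mean was at least 100 FPKM, in 63 it was between 10 and 100, and in 10 it was under 10. The highest was Mrpl24, the counterpart of bacterial L24 near the exit of the peptide tunnel, with a mean of 151.7 FPKM. Mrpl39, a mitochondria-specific protein related to threonyl-tRNA synthetase, followed with 149.3 FPKM, and in Tcfl5+/- cells it was the higher at 160.7 and 160.3 FPKM against 127.4 and 139.4 FPKM for Mrpl24. Mrpl54 (146.7 and 130.4 FPKM in Tcfl5+/- cells, 129.5 and 123.8 FPKM in Tcfl5+/+ cells) and Mrpl20 (132.6 and 118.2 FPKM in Tcfl5+/- cells, 110.9 and 113.6 FPKM in Tcfl5+/+ cells) came next, and the values of these 2 genes overlapped each other's range.

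At the low end, Mrpl19 had 3.48 and 3.62 FPKM in Tcfl5+/- cells, against 2.75 and 2.79 FPKM in Tcfl5+/+ cells. Mrpl17 had 4.06 and 4.46 FPKM in Tcfl5+/- cells, against 3.5 and 3.56 FPKM in Tcfl5+/+ cells. Both are counterparts of bacterial proteins, and both kept their Tcfl5+/- libraries above their Tcfl5+/+ libraries. Mrpl19 shares 1273 bases with Gcfc2 on the opposite strand. Gcfc2 had 6.51 and 7.25 FPKM in Tcfl5+/- cells, against 4.34 and 4.76 FPKM in Tcfl5+/+ cells. Reads of the shared stretch cannot be assigned by strand, as no strand-keeping step is named in the library protocol. Mrpl50, a mitochondria-specific protein, had 4.87 and 3.61 FPKM in Tcfl5+/- cells, against 4.78 and 2.94 FPKM in Tcfl5+/+ cells, with overlap. The products are incorporated into a single particle, yet their transcripts differed widely in level. Levels fell with the length of the longest annotated transcript (Spearman's rho -0.32 across the 77 genes, a description, since FPKM already divides by length and genes are not independent replicates). Median mean levels were 27.3 FPKM for large-subunit proteins with a bacterial counterpart, 43.6 FPKM for those without, 26.4 FPKM for small-subunit proteins with one and 26.1 FPKM for those without.

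**Figure D2:**
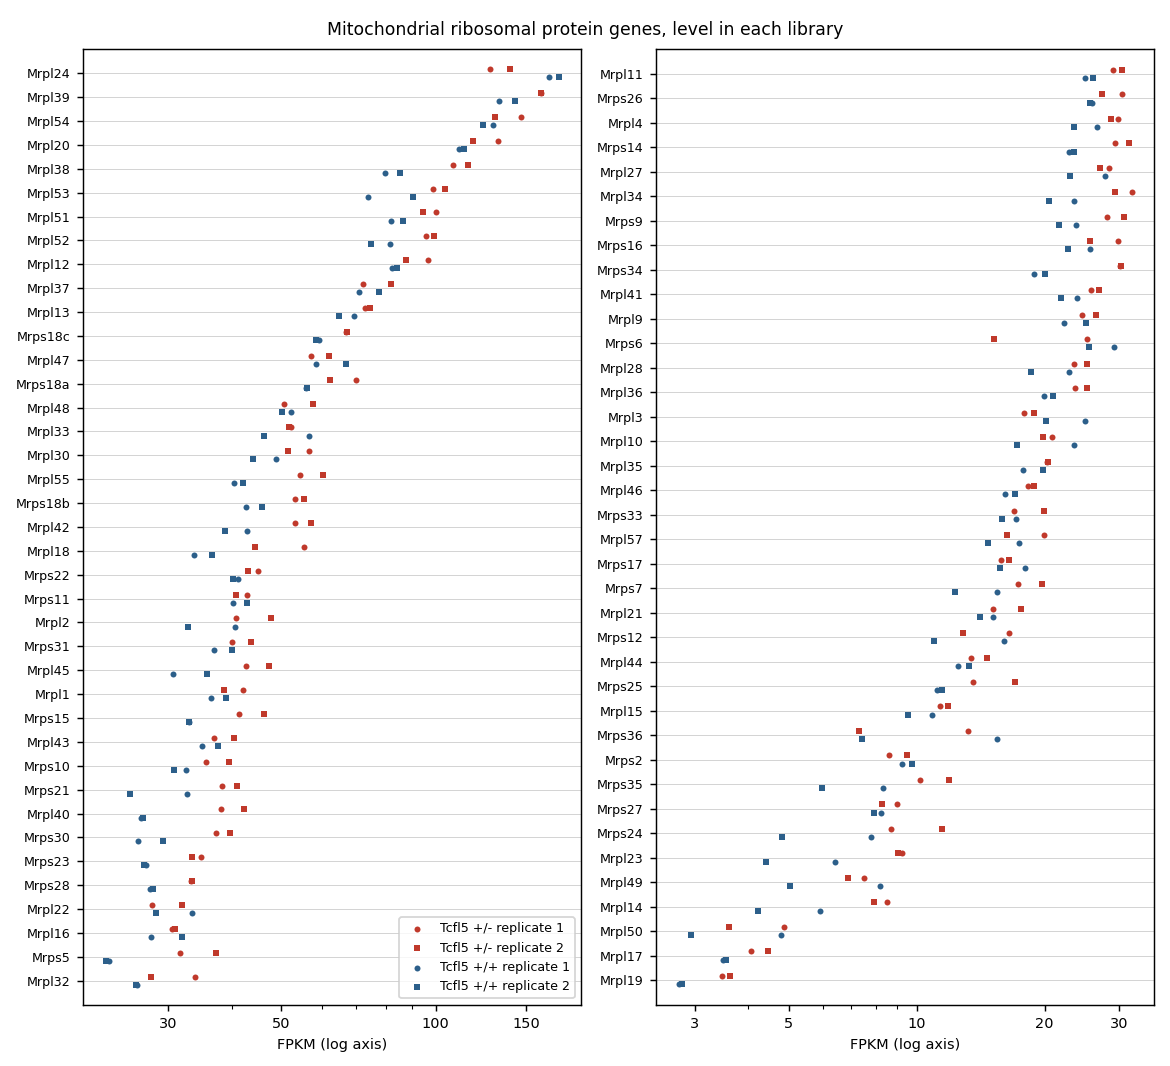
FPKM of each of the 77 genes in each library (log axis; red, Tcfl5+/-; blue, Tcfl5+/+; circle, replicate 1; square, replicate 2), ordered by mean level. Most red points lie right of the blue ones; Mrpl24, Mrpl3 and Mrps6 are the 3 genes with both red points left of both blue ones.

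Most of these genes had higher values in Tcfl5+/- cells, by small amounts, and none passed the test. Both Tcfl5+/- libraries lay above both Tcfl5+/+ libraries for 51 of 77 genes (66.2%), against 23.6% of all genes tested. Both lay below for 3 (3.9%), against 19% of all genes tested, and for 23 the libraries overlapped. The mean was higher in Tcfl5+/- cells for 69 of 77, against 47.7% of all genes tested, and lower for 8, against 52.3%. The median log2 difference was 0.20, with quartiles of 0.11 and 0.36 and a range of -0.46 to 0.68, against a median of -0.02 for all genes tested. Gene by gene, the size of the difference regardless of sign had a median of 0.21, and the gap between replicates had a median of 0.11 in either genotype. After adjustment over all 13333 genes 0 of the 77 passed (0% of all genes tested did), the smallest adjusted p being 0.153 by limma. At an unadjusted p under 0.05, 24 were higher (31.2%, against 7.63% of all genes tested) and 1 was lower (1.3%, against 5.57%). Without Tcfl5+/- replicate 1 the count of 24 became 13, and without Tcfl5+/- replicate 2 it became 8 (4.22% and 3.73% of all genes tested). Without Tcfl5+/+ replicate 1 it became 17, and without Tcfl5+/+ replicate 2 it became 14 (6.53% and 5.24% of all genes). It was 14 with median-ratio scaling, 14 with upper-quartile scaling and 11 with a smooth trend on transcript length removed (4.395%, 4.33% and 4.58% of all genes). The count of 3 with both libraries below became 4 and 6 without Tcfl5+/- replicate 1 or 2, where 42.4% and 26.9% of all genes were lower without overlap. It became 7 and 9 without Tcfl5+/+ replicate 1 or 2, where 25.6% and 44.6% of all genes were.

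Single libraries were also set against each other. Tcfl5+/- replicate 1 was higher than Tcfl5+/+ replicate 1 for 63 genes (81.8%, against 46.5% of all genes tested) and higher than Tcfl5+/+ replicate 2 for 65 (84.4%, against 65.2%). Tcfl5+/- replicate 2 was higher than Tcfl5+/+ replicate 1 for 63 (81.8%, against 40.1%) and higher than Tcfl5+/+ replicate 2 for 68 (88.3%, against 50.3%). Within Tcfl5+/- cells, replicate 1 was the higher for 29 genes (37.7%, against 59.0% of all genes), and within Tcfl5+/+ cells for 43 (55.8%, against 64.5%). Summed over the 77 genes, the level was 3148 and 3168 FPKM in Tcfl5+/- cells, against 2781 and 2749 FPKM in Tcfl5+/+ cells, a ratio of means of 1.14. As a share of all FPKM in the library, it was 0.640% and 0.655% in Tcfl5+/- cells, against 0.588% and 0.587% in Tcfl5+/+ cells, a ratio of 1.10. With 2 libraries a group, an exact permutation test cannot give a two-sided p below 0.333, the value for both sums.

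**Figure D3:**
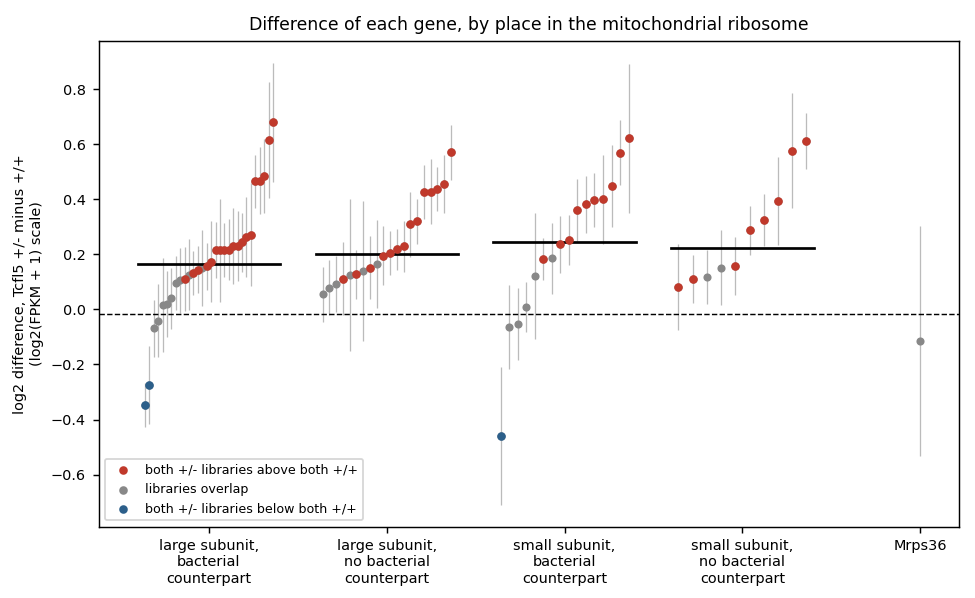
Log2 difference on the log2(FPKM + 1) scale (vertical axis, Tcfl5+/- minus Tcfl5+/+; point, estimate; grey line, 1 SE either side) for each gene, grouped by place in the mitochondrial ribosome, with thick bars at the class medians and a dashed line at the median of all genes tested (-0.02). The 4 medians of 0.16 to 0.24 lie above the dashed line, and Mrps36, in no class, stands alone on the right.

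Large-subunit proteins with a bacterial counterpart include those that surround the catalytic core and the tunnel. Of 30, 19 had both Tcfl5+/- libraries above both Tcfl5+/+ libraries, 2 had both below and 9 overlapped. Of all genes tested, 23.6% were above and 19% below. The median log2 difference of the 30 was 0.16. None passed the test. Mrpl55, the counterpart of bacterial L31 (chr11:59202486-59206137), had 54.3 and 60.3 FPKM in Tcfl5+/- cells, against 40.3 and 42.2 FPKM in Tcfl5+/+ cells. Its libraries did not overlap, and the log2 difference was 0.46 (SE 0.09, limma adjusted p = 0.178). Mrpl34, the counterpart of bacterial L34 (chr8:71464926-71465753), had 32.1 and 29.3 FPKM in Tcfl5+/- cells, against 23.5 and 20.5 FPKM in Tcfl5+/+ cells, a ratio of means of 1.40 (adjusted p = 0.229). Mrpl18 (chr17:12911345-12916478), which binds 5S ribosomal RNA in bacteria, had 55.2 and 44.4 FPKM in Tcfl5+/- cells, against 33.7 and 36.6 FPKM in Tcfl5+/+ cells. The Tcfl5+/- libraries of Mrpl18 stood further apart from each other than its Tcfl5+/+ libraries did (adjusted p = 0.249). The widest difference of all 77 was that of Mrpl23, singled out after its values were seen, with 9.22 and 9.05 FPKM in Tcfl5+/- cells, against 6.40 and 4.41 FPKM in Tcfl5+/+ cells (log2 difference 0.68, SE 0.22, adjusted p = 0.288). Mrpl14, which in mitochondria contacts the silencing factor Malsu1, had 8.51 and 7.93 FPKM in Tcfl5+/- cells, against 5.92 and 4.23 FPKM in Tcfl5+/+ cells (adjusted p = 0.319). In both of these low-level genes the spread between the Tcfl5+/+ libraries was wide.

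The proteins of the stalk, which recruits translation factors, were split. Mrpl12, the stalk protein that touches the factors, had 96.7 and 87.5 FPKM in Tcfl5+/- cells, against 82.0 and 84.2 FPKM in Tcfl5+/+ cells (log2 difference 0.14, adjusted p = 0.602). Mrpl11, at the stalk base, had 29.0 and 30.5 FPKM in Tcfl5+/- cells, against 24.9 and 26.0 FPKM in Tcfl5+/+ cells (log2 difference 0.22, adjusted p = 0.464). Mrpl10, which anchors Mrpl12, had 20.8 and 19.9 FPKM in Tcfl5+/- cells, against 23.5 and 17.3 FPKM in Tcfl5+/+ cells. Its Tcfl5+/- values lay inside the Tcfl5+/+ range, and its log2 difference was 0.02 (adjusted p = 0.980). Mrpl10 and Mrpl12 products sit in the same stalk, with mean levels of 20.4 and 92.1 FPKM in Tcfl5+/- cells.

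Of the 20 large-subunit proteins without a bacterial counterpart, all had a higher mean in Tcfl5+/- cells. Both Tcfl5+/- libraries lay above both Tcfl5+/+ libraries for 14, against 23.6% of all genes tested. The median log2 difference was 0.20, with no gene passing. Mrpl38 and Mrpl40 belong to the central protuberance, a projection of the large subunit. Mrpl38 (chr11:116131817-116138868) had 108.3 and 115.5 FPKM in Tcfl5+/- cells, against 79.7 and 85.2 FPKM in Tcfl5+/+ cells (log2 difference 0.44, SE 0.08, adjusted p = 0.17). Mrpl40, which the files place on a scaffold, had 38.2 and 42.2 FPKM in Tcfl5+/- cells, against 26.6 and 26.8 FPKM in Tcfl5+/+ cells (log2 difference 0.57, SE 0.10, adjusted p = 0.162). In both genes the gap between genotypes was several times the gap between replicates. Further proteins of the protuberance, Mrpl46 and Mrpl48, had smaller differences of 0.15 and 0.08, and Mrpl48 overlapped.

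Mrpl45 (chr11:97315716-97329920), which anchors the ribosome to the inner membrane near the tunnel exit, had 42.7 and 47.2 FPKM in Tcfl5+/- cells, against 30.7 and 35.7 FPKM in Tcfl5+/+ cells (adjusted p = 0.248). Mrpl42 (chr10:95480805-95501993) had 53.2 and 57.2 FPKM in Tcfl5+/- cells, against 42.9 and 38.8 FPKM in Tcfl5+/+ cells (adjusted p = 0.199). Mrps30 (chr13:118380110-118387252), a large-subunit protein despite its symbol, had 37.2 and 39.6 FPKM in Tcfl5+/- cells, against 26.3 and 29.3 FPKM in Tcfl5+/+ cells (adjusted p = 0.205). These 3 had ratios of means of 1.35, 1.35 and 1.38. Mrpl52 (chr14:54426909-54429750) had 95.9 and 99.4 FPKM in Tcfl5+/- cells, against 81.5 and 74.7 FPKM in Tcfl5+/+ cells (log2 difference 0.32, adjusted p = 0.228). Mrpl51 (chr6:125192200-125194392) had 100.2 and 94.3 FPKM in Tcfl5+/- cells, against 81.8 and 86.5 FPKM in Tcfl5+/+ cells, a ratio of 1.16 (adjusted p = 0.377). Mrpl39 (chr16:84717580-84735775), with 160.7 and 160.3 FPKM in Tcfl5+/- cells and 133.1 and 142.9 FPKM in Tcfl5+/+ cells, had the same ratio of 1.16 (adjusted p = 0.310).

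Small-subunit proteins line the decoding site and the path of the messenger RNA. Among the 16 with a bacterial counterpart, 10 had both Tcfl5+/- libraries above, 1 had both below and 5 overlapped. Of all genes tested, 23.6% were above and 19% below. The median log2 difference of the 16 was 0.24. Mrps5 (chr2:127587426-127603986), whose bacterial counterpart lies at the messenger RNA entry and affects accuracy of decoding, had 31.7 and 37.3 FPKM in Tcfl5+/- cells, against 23.0 and 22.7 FPKM in Tcfl5+/+ cells. Its ratio of means was 1.51 (log2 difference 0.57, SE 0.12, adjusted p = 0.183). Mrps15 (chr4:126046928-126055536) had 41.4 and 46.1 FPKM in Tcfl5+/- cells, against 33.0 and 32.9 FPKM in Tcfl5+/+ cells (adjusted p = 0.221). Mrps14 (chr1:160195260-160201186) had 29.3 and 31.6 FPKM in Tcfl5+/- cells, against 22.8 and 23.5 FPKM in Tcfl5+/+ cells (adjusted p = 0.239). In each of these 3 the Tcfl5+/+ libraries were nearly equal. Mrps12, the counterpart of the protein that bears streptomycin resistance mutations in bacteria, had 16.5 and 12.8 FPKM in Tcfl5+/- cells, against 16.02 and 11 FPKM in Tcfl5+/+ cells, and replicate 1 was the higher in both genotypes. Mrps24 had 8.69 and 11.5 FPKM in Tcfl5+/- cells, against 7.79 and 4.82 FPKM in Tcfl5+/+ cells, replicate 2 being the higher in Tcfl5+/- cells and the lower in Tcfl5+/+ cells (log2 difference 0.62, SE 0.27, adjusted p = 0.438).

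All 10 small-subunit proteins without a bacterial counterpart had a higher mean in Tcfl5+/- cells. For 8 both Tcfl5+/- libraries lay above, against 23.6% of all genes tested, and the median log2 difference was 0.22. The smallest p of all 77 genes was that of Mrps34 (chr17:24895120-24896274), which is needed for a stable small subunit in human and mouse cells. It had 30.2 and 30.3 FPKM in Tcfl5+/- cells, against 18.85 and 20.04 FPKM in Tcfl5+/+ cells, a ratio of 1.56 and a log2 difference of 0.61 (SE 0.10, adjusted p = 0.153). Its replicates agreed within 2 FPKM in either genotype. Mrps23, on a scaffold in the files, had 34.9 and 33.5 FPKM in Tcfl5+/- cells, against 27.3 and 27.0 FPKM in Tcfl5+/+ cells (adjusted p = 0.258). The smallest difference in this class was that of Mrps27, with 8.98 and 8.26 FPKM in Tcfl5+/- cells, against 8.24 and 7.95 FPKM in Tcfl5+/+ cells.

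Mammals have 3 paralogs of bacterial S18, of which Mrps18c takes the place of S18, Mrps18b joins another site of the small subunit and Mrps18a joins the large subunit. Mrps18a had 69.8 and 62.1 FPKM in Tcfl5+/- cells, against 55.8 and 56.2 FPKM in Tcfl5+/+ cells. Mrps18b had 53.0 and 55.2 FPKM in Tcfl5+/- cells, against 42.7 and 45.8 FPKM in Tcfl5+/+ cells. Mrps18c had 66.8 and 67.0 FPKM in Tcfl5+/- cells, against 59.2 and 58.5 FPKM in Tcfl5+/+ cells. None of the 3 overlapped between genotypes, with log2 differences of 0.23, 0.29 and 0.18 and adjusted p of 0.401, 0.277 and 0.411 by limma. Of all genes tested, 23.6% had both Tcfl5+/- libraries above. Mrps18a shares 6871 bases with Rsph9 on the opposite strand. Rsph9 had 129.5 and 124.8 FPKM in Tcfl5+/- cells, against 94.3 and 105.4 FPKM in Tcfl5+/+ cells. Reads of that stretch cannot be assigned by strand, as no strand-keeping step is named in the library protocol. By place in the ribosome, 50 of the genes belong to the large subunit and 26 to the small one. The summed large-subunit level was 3.17 and 3.11 times the small-subunit level in Tcfl5+/- libraries, against 3.23 and 3.37 times in Tcfl5+/+ libraries. These sums run over unequal numbers of genes.

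The 3 genes with both Tcfl5+/- libraries below both Tcfl5+/+ libraries were Mrpl24, Mrpl3 and Mrps6. Mrpl24 (chr3:87918131-87923450) had 127.4 and 139.4 FPKM in Tcfl5+/- cells, against 166.3 and 173.7 FPKM in Tcfl5+/+ cells, a ratio of 0.785. Its log2 difference was -0.35 (SE 0.08, adjusted p = 0.198), and it was the only gene of the 77 lower at an unadjusted p under 0.05. Mrpl24 shares 850 bases with Rrnad1 on the opposite strand, and Rrnad1 had 8.45 and 8.47 FPKM in Tcfl5+/- cells, against 11.04 and 10.36 FPKM in Tcfl5+/+ cells. No strand-keeping step is named in the library protocol, and reads of the shared stretch cannot be assigned to either gene by strand. Mrpl3 (chr9:105053268-105077476), at the base of the peptidyl transferase centre, had 17.9 and 18.9 FPKM in Tcfl5+/- cells, against 24.9 and 20.2 FPKM in Tcfl5+/+ cells (adjusted p = 0.536). Mrps6 (chr16:92058336-92112227) had 25.1 and 15.2 FPKM in Tcfl5+/- cells, against 29.2 and 25.5 FPKM in Tcfl5+/+ cells (adjusted p = 0.565). The highest Tcfl5+/- value of Mrps6 was thus close to its lowest Tcfl5+/+ value. Mrps6 shares 29138 bases with Slc5a3 on the same strand, a gene at 1.9 and 1.1 FPKM in Tcfl5+/- cells, against 1.6 and 1.89 FPKM in Tcfl5+/+ cells.

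On the log2(FPKM + 1) scale, the gap between the Tcfl5+/+ libraries was widest for Mrps36, Mrpl49 and Mrps24, and Mrps6 had a wide gap between its Tcfl5+/- libraries (0.69). Mrps36, now assigned as Kgd4 to the alpha-ketoglutarate dehydrogenase complex and so placed in no class here, had 13.2 and 7.31 FPKM in Tcfl5+/- cells, against 15.4 and 7.41 FPKM in Tcfl5+/+ cells. Replicate 1 was the higher in both genotypes. Mrpl49 had 7.51 and 6.89 FPKM in Tcfl5+/- cells, against 8.17 and 5.03 FPKM in Tcfl5+/+ cells, and Mrps24 was given above. Mrpl47 (chr3:32727497-32736755), with 57.2 and 61.9 FPKM in Tcfl5+/- cells and 58.4 and 66.7 FPKM in Tcfl5+/+ cells, was among the few with a lower mean in Tcfl5+/- cells. In all, 16 of the 73 genes with a usable position shared bases with another listed gene, 14 of them on the opposite strand. Mrpl18 shares 150 bases with Tcp1, a chaperonin subunit gene at 1010 and 1036 FPKM in Tcfl5+/- cells, against 989.4 and 1076 FPKM in Tcfl5+/+ cells, whose libraries overlapped. The deposited position of Mrpl27 joined places on different chromosomes, and its value (28.4 and 27.0 FPKM in Tcfl5+/- cells, 27.8 and 23.0 FPKM in Tcfl5+/+ cells) is uncertain. RefSeq names 6 pseudogenes of Mrpl23, Mrpl27, Mrpl48 and Mrps36, none of them listed in the tables, and how reads shared with such copies were counted is unknown.

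A promoter facing away from that of a neighbour was common among these genes. Of the 68 with a window, 25 (36.8%) had a tested gene on the other strand that starts within 1000 bases upstream or overlaps by up to 100, against 12.8% of all genes tested. Mrps11 and Mrpl46 make up such a pair themselves, their starts 42 bases apart, with these letters between them on the plus strand of GRCm38.p6 (RefSeq).
Mrps11 and Mrpl46 (chr7:78783090-78783130, plus strand): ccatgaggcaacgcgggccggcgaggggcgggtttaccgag
Mrps11, of the small subunit, had 42.8 and 40.8 FPKM in Tcfl5+/- cells, against 40.2 and 42.9 FPKM in Tcfl5+/+ cells. Mrpl46, of the large subunit, had 18.3 and 18.9 FPKM in Tcfl5+/- cells, against 16.2 and 17.1 FPKM in Tcfl5+/+ cells. The first overlapped and the second did not. Among the 23 partners that are not mitochondrial ribosomal protein genes, 6 had both Tcfl5+/- libraries above, 3 had both below and 14 overlapped, with a median log2 difference of 0.04, and among all genes tested 23.6% were above and 19% below. For the genes with a partner the median was 0.17, and for those without one it was 0.21. Hira, a histone chaperone gene 113 bases from the Mrpl40 start, had 4.42 and 5.16 FPKM in Tcfl5+/- cells, against 4.93 and 4.25 FPKM in Tcfl5+/+ cells, with overlap where Mrpl40 had none.

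The pattern was set beside related genes. For comparison, 23.6% of all genes tested had both Tcfl5+/- libraries above and 19% had both below. Of 5 mitochondrial ribosomal proteins with other symbols, 3 had both Tcfl5+/- libraries above, with a median log2 difference of 0.15. Dap3, a GTP-binding small-subunit protein, had 217.3 and 220.9 FPKM in Tcfl5+/- cells, against 185.3 and 185.1 FPKM in Tcfl5+/+ cells (limma adjusted p = 0.234). Gadd45gip1, a large-subunit protein, had 22.0 and 19.1 FPKM in Tcfl5+/- cells, against 14.8 and 14.5 FPKM in Tcfl5+/+ cells (adjusted p = 0.252). Of 27 genes for ribosome assembly and ribosomal RNA modification in mitochondria, 12 had both Tcfl5+/- libraries above and 4 had both below, with a median of 0.04. Mtg2, a GTPase of large-subunit assembly, had 9.12 and 10.4 FPKM in Tcfl5+/- cells, against 6.15 and 6.95 FPKM in Tcfl5+/+ cells (adjusted p = 0.305), and for Ngrn, a large-subunit assembly factor, the adjusted p was 0.332. Of 16 translation factor genes, 8 were above and 1 below, with a median of 0.16. Oxa1l, the insertase that receives nascent chains, had 12.3 and 12.8 FPKM in Tcfl5+/- cells, against 8.81 and 7.25 FPKM in Tcfl5+/+ cells (adjusted p = 0.250). Mtif2, the initiation factor that brings in the initiator tRNA, had 20.1 and 21.2 FPKM in Tcfl5+/- cells, against 26.1 and 25.7 FPKM in Tcfl5+/+ cells (adjusted p = 0.302). Of 20 genes for mitochondrial tRNA charging, 4 were above and 2 below, with a median of -0.02. The smallest p there was that of Fars2, the phenylalanyl-tRNA synthetase, with 71.4 and 69.2 FPKM in Tcfl5+/- cells, against 58.6 and 58.6 FPKM in Tcfl5+/+ cells (adjusted p = 0.264), followed by Tars2, the threonyl-tRNA synthetase (adjusted p = 0.489). Of 17 genes for mitochondrial DNA transcription and replication, 5 were above and 5 below, with a median of 0.01. Mterf2, of the mitochondrial termination factor family, had 3.44 and 2.86 FPKM in Tcfl5+/- cells, against 6.26 and 6.56 FPKM in Tcfl5+/+ cells (adjusted p = 0.197). Tfam, which packages mitochondrial DNA and acts in its transcription, lay the other way. It had 10.6 and 8.23 FPKM in Tcfl5+/- cells, against 7.48 and 4.13 FPKM in Tcfl5+/+ cells (adjusted p = 0.470).

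Complex I of the respiratory chain and the cytoplasmic ribosome were taken as other families of abundant proteins. Of 36 complex I subunit genes, 31 had both Tcfl5+/- libraries above and 0 below, against 23.6% and 19% of all genes tested. Their median log2 difference was 0.21. The smallest p among them belonged to Ndufb9, with 213.7 and 236.6 FPKM in Tcfl5+/- cells, against 158.5 and 153.9 FPKM in Tcfl5+/+ cells (limma adjusted p = 0.144), and then to Ndufa5 (adjusted p = 0.166). Of 82 cytoplasmic ribosomal protein genes tested, 63 were above and 1 was below, with a median of 0.30. Rps15 had 602.9 and 595.4 FPKM in Tcfl5+/- cells, against 390.8 and 334.8 FPKM in Tcfl5+/+ cells (adjusted p = 0.134), and Rpl9 had the next smallest adjusted p (0.142). No gene of any of these lists passed the test by limma after adjustment. The mitochondrial ribosomal protein genes have short transcripts, with a median longest transcript of 1213 bases against 2949 bases for all genes tested. Across all genes the log2 difference fell with transcript length (Spearman's rho -0.12 over 13332 genes), and with a smooth trend on length removed the median of the 77 was 0.16 and the genes with both Tcfl5+/- libraries above numbered 37, against 20.1% of all genes in that fit.

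**Figure D4:**
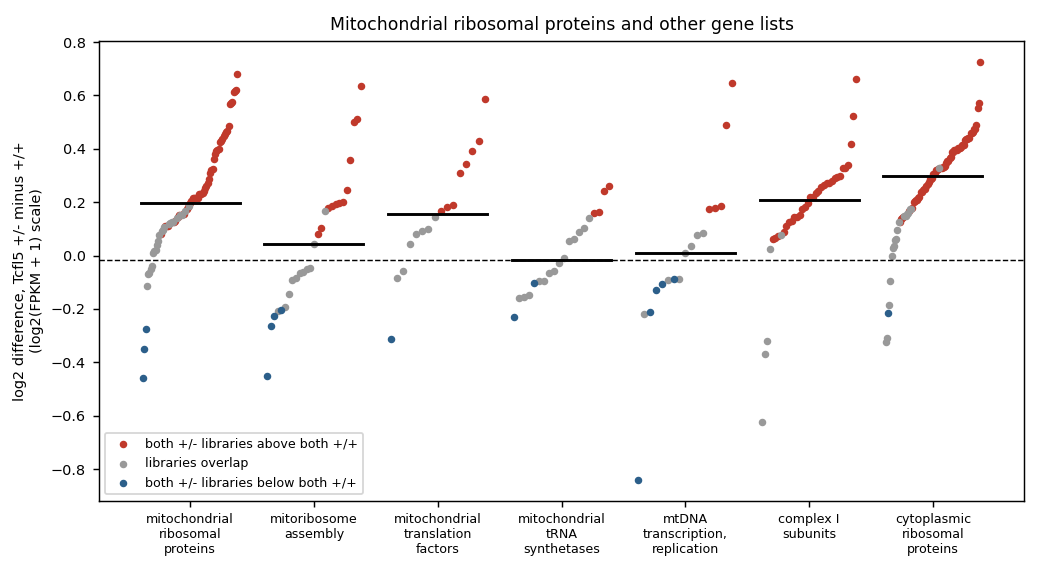
Log2 difference (vertical axis, Tcfl5+/- minus Tcfl5+/+, log2(FPKM + 1) scale) for the 77 mitochondrial ribosomal protein genes and 6 related lists; each point is a gene, thick bars are list medians and the dashed line is the median of all genes tested. The medians are 0.20 for mitochondrial ribosomal proteins, 0.21 for complex I and 0.30 for cytoplasmic ribosomal proteins, while those for tRNA charging and mitochondrial DNA lie at -0.02 and 0.01.

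Markers of testis cells also differed between the libraries. Of 12 pachytene markers, 6 had both Tcfl5+/- libraries below both Tcfl5+/+ libraries and 0 above. These were Sycp1, Hspa2, Adam3, Mybl1, Ccna1 and Tcfl5 itself, the gene that lost a copy. Of all genes tested, 23.6% lay above and 19% below. Of 12 spermatid markers, 6 had both Tcfl5+/- libraries above both Tcfl5+/+ libraries and 0 below. The 6 were Prm1, Prm2, Tnp1, Tnp2, Tssk6 and Tekt1. Prm1, a protamine, had 522.7 and 412.5 FPKM in Tcfl5+/- cells, against 247.7 and 113.6 FPKM in Tcfl5+/+ cells. The acrosomal markers Acrv1 and Spaca1 overlapped and had lower means in Tcfl5+/- cells, with ratios of 0.734 and 0.725, and Odf1, Odf2 and Akap4 overlapped with ratios of 1.07, 1.00 and 1.06. The 10 Sertoli cell markers summed to 831.0 and 288.2 FPKM in Tcfl5+/- cells, against 812.8 and 511.0 FPKM in Tcfl5+/+ cells, high in replicate 1 of either genotype. The 6 Leydig cell markers summed to 619.4 and 331.4 FPKM in Tcfl5+/- cells, against 579.3 and 363.7 FPKM in Tcfl5+/+ cells, with the same order. The 10 spermatogonial markers summed to 85.6 and 79.1 FPKM in Tcfl5+/- cells, against 85.4 and 60.6 FPKM in Tcfl5+/+ cells. Single markers went both ways, 2 of the 8 tested lying above without overlap and 2 below. For 9 markers of stages before pachytene the sums were 258.4 and 291.5 FPKM in Tcfl5+/- cells, against 281.1 and 258.4 FPKM in Tcfl5+/+ cells. Here 2 of the 8 tested lay above and 3 below. The 2 peritubular markers stayed under 10 FPKM in sum. The 3 macrophage markers were under 1 FPKM in every library, and the blood markers Hba-a1 and Hbb-bs were at 0 in at least 1. The part of spermatid, Sertoli or Leydig cell transcripts in the difference was not tested.

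**Figure D5:**
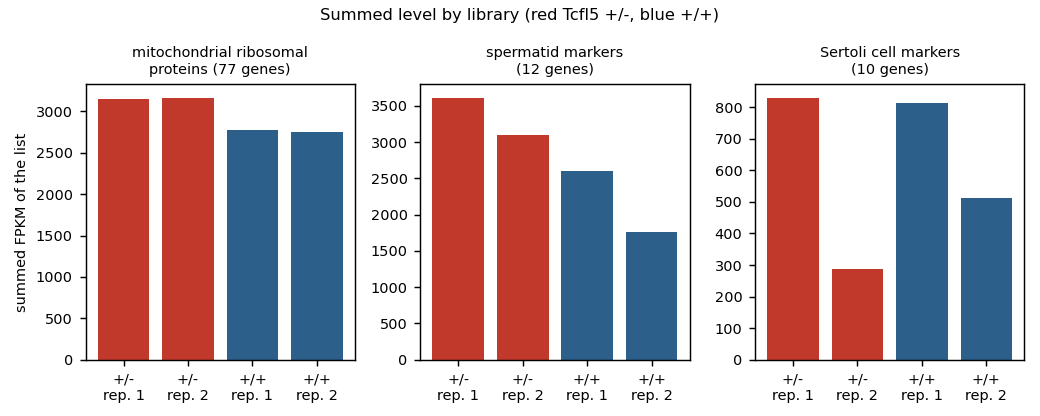
Summed FPKM in each library (red, Tcfl5+/-; blue, Tcfl5+/+) of the 77 mitochondrial ribosomal protein genes, 12 spermatid markers and 10 Sertoli cell markers. The first sums to 3148 and 3168 FPKM in Tcfl5+/- libraries against 2781 and 2749 FPKM in Tcfl5+/+ libraries, the spermatid sum is also higher in both Tcfl5+/- libraries, and the Sertoli sum is lowest in Tcfl5+/- replicate 2.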

How the data were processed

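The 4 libraries of poly(A)-selected RNA from pachytene spermatocytes were read as single-end reads of 50 bases, per the labels' protocols. The deposited values are FPKM per gene with 2 decimals, per the file headers. The submitters' processing notes name HISAT2 2.0.4, Bowtie2 2.2.5 and RSEM 1.2.12, without their roles, and GRCm38 as the build. Read counts were not used here, and depth and counting error are unknown. FPKM is relative to the other transcripts of its library.

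The 4 tables were joined by gene identifier, a gene absent from a library being set to 0, and 1593 genes without any value were left out. limma 3.58.1 (R 4.3.3, trend on mean level) was fitted to log2(FPKM + 1) for the 13333 genes whose mean reached 0.5 FPKM. Genotype was the single term, tests were two-sided, and p was adjusted by Benjamini-Hochberg over all of these genes (threshold 0.05). A log2 difference on this scale understates the change of low genes; ratios are of mean FPKM. All 77 mitochondrial ribosomal protein genes passed the filter. The fit was checked on simulated independent libraries, with planted changes larger than any difference among the 77 genes. That check does not show whether differences of the size reported here would be found.

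The genes, the related lists and the motifs were chosen with earlier results of these data known. The lists held the 5 mitochondrial ribosomal proteins with other symbols, assembly, translation, tRNA charging, mitochondrial DNA, complex I, cytoplasmic ribosomal protein and cell type marker genes. Genes were named by rule: Tcfl5; up to 12 per direction with an unadjusted p under 0.05, at least 1 FPKM and no overlap between genotypes (at least 6 where fewer passed, as far as there were any); the 5 highest and 5 lowest; the 3 with the widest gap between Tcfl5+/+ libraries; the S18 paralogs and stalk proteins; and the 2 of smallest p in each other list. Others named are examples of a class or a printed sequence, chosen after their values were seen. Alternatives were another pseudocount, 2 other filters, 4 scalings, corrections for length and GC content, a replicate block and leaving out each library.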

Additional observations from a re-analysis of the deposited data

How the results depend on the processing

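With the replicate number as a block, 15 of the 77 genes passed (14 higher, 1 lower). Of all 13333 genes tested, 1213 passed in that fit (650 higher, 563 lower). Tcfl5 passed there at -0.59 (limma adjusted p = 0.00339). The replicate numbers are shared by the labels, but nothing states that they pair the libraries. Same-numbered libraries deviated together (correlation 0.529), with only 2 pairs, so this is a hint from the data and not from the design. The median log2 difference of the 77 genes, 0.20 as reported, was 0.15 with libraries scaled to an equal sum, 0.17 after quantile normalization and 0.16 after the length correction, and 0.17 to 0.24 without a single library. In the same fits it stayed 0.16 to 0.25 above the median of all genes. Genes with both Tcfl5+/- libraries below numbered 4 to 9 without a single library, where 25.6% to 44.6% of all genes were lower without overlap. Over all genes, 65 passed with median-ratio scaling, 41 with the upper quartile, 119 with quantile normalization, 63 with the length correction and 63 with the GC correction, none of them among the 77. The 15 genes named for their p kept their direction in every alternative run, and 11 of them passed under the block and in no other fit. Where a library was left out, the lone library of a genotype was assumed to vary like those of the other. With FPKM alone, precision at low levels cannot be given.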

Other observations

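A pair of elements was searched after the first motif results had been seen. AANATGGC beginning at position 1 to 40 after the start was found in 22.1% of the windows of mitochondrial ribosomal protein genes (15 of 68) and in 3.04% of those of all genes tested. The ZNF143-type element, searched on either strand, was found in 5.88% (4 of 68) against 2.22%. Neighbouring genes that share a start region share letters, so these windows are not independent.

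Ict1, whose product is a large-subunit protein that can release stalled chains and whose RefSeq symbol is Mrpl58, is listed under its older symbol and was not counted among the 77. It had 11.1 and 11.6 FPKM in Tcfl5+/- cells, against 8.99 and 7.07 FPKM in Tcfl5+/+ cells (limma adjusted p = 0.374). Fau, which starts 192 bases from Mrpl49 on the other strand and encodes a cytoplasmic ribosomal protein fused to a ubiquitin-like one, had 518.3 and 480.0 FPKM in Tcfl5+/- cells, against 398.3 and 361.8 FPKM in Tcfl5+/+ cells (adjusted p = 0.186). Ndufb5, a complex I subunit gene facing Mrpl47, had 218.1 and 223.5 FPKM in Tcfl5+/- cells, against 177.5 and 186.3 FPKM in Tcfl5+/+ cells (adjusted p = 0.218). Both of these partners had no overlap between genotypes, where Mrpl49 and Mrpl47 overlapped; the difference between partners was not tested. Psma2, a proteasome subunit gene facing Mrpl32, had 49.9 and 47.1 FPKM in Tcfl5+/- cells, against 56.9 and 48.1 FPKM in Tcfl5+/+ cells.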
